A study of Mus musculus with 6 samples.

Results

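Mitochondrial protein import and assembly was described through 41 genes of the 49585 in the deposited tables. They were taken by name: every gene called Timm or Tomm with a number, and 16 further genes for chaperones, metaxins, processing peptidase subunits and assembly factors. RNA was sequenced from mGB2, a mouse glioblastoma line that its labels call glioblastoma stem cells, in 3 libraries of Bcat1-KO cells and 3 of Control cells of the same line, which the labels mark NT. Both groups were untreated and grew attached to coated plates, in stem cell medium holding N2, B27, EGF and FGF, until confluent. Bcat1 encodes the cytosolic enzyme that moves the amino group of leucine, isoleucine and valine to 2-oxoglutarate. The labels do not say whether the Bcat1-KO cells are 1 clone or a pool, nor whether replicates were separate cultures, so the p-values measure a spread that may be technical.

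Nearly all mitochondrial proteins are made in the cytosol and enter through the TOM complex of the outer membrane. From there the SAM complex builds barrel proteins into the outer membrane, small TIM chaperones carry hydrophobic proteins across the intermembrane space, TIM22 inserts carriers into the inner membrane, and TIM23 passes proteins with a presequence inward. A motor built on the mitochondrial heat shock protein of the Hsp70 type pulls these into the matrix, where a peptidase removes the presequence and a chaperonin folds the product. The RNA of these genes says nothing directly about import itself, which was not measured.

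Total counts were 35608024, 37800648 and 36414678 in the Bcat1-KO libraries, against 31606648, 33550412 and 29543157 in the Control libraries. Bcat1 was at 155, 176 and 173 CPM (counts scaled to library size) in Bcat1-KO cells, against 214, 223 and 232 CPM in Control cells, so its RNA was lower but still present (log2 fold change -0.41, SE 0.07, adjusted p = 0.000355). Genes of the mitochondrial genome took 1.31% to 1.94% of the counts in Bcat1-KO libraries, against 1.51% to 2.28% in Control libraries, where replicate 1 was highest. The 10 markers of glioma stem cells and neural progenitors summed to 2409 to 2618 CPM in Bcat1-KO cells, against 1511 to 1576 CPM in Control cells. Markers of microglia (8 of 8) and of endothelium (6 of 6) stayed under 1 CPM in every library, with C1qa, P2ry12 and Cldn5 at 0 CPM in all of them. The 9 neuron markers summed to 409 to 454 CPM in Bcat1-KO cells and 216 to 233 CPM in Control cells, mostly Map2, but the neuronal marker Rbfox3 fell, at 0.0719 ± 0.0415 CPM in Bcat1-KO cells and 33.1 ± 0.667 CPM in Control cells (SD, n = 3 each; log2 fold change -8.77). The 6 oligodendrocyte markers summed to 34.0 to 41.6 CPM in Bcat1-KO cells and 21.2 to 23.6 CPM in Control cells, mostly Cnp, with Mog and Mag at 0 CPM in every library. The 7 fibroblast and mural cell markers summed to 4.48 to 6.07 CPM in Bcat1-KO cells, against 24.6 to 26.5 CPM in Control cells, mostly Col1a1. The part of these marker levels in the import gene results was not tested.

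Of the 41 import genes, 38 passed the filter on low counts and entered the test with 14020 genes in all. In Bcat1-KO cells 19 of them rose, where 32.0% of all genes tested rose, and 7 fell, where 30.3% of all genes tested fell (edgeR's quasi-likelihood test at an adjusted p of 0.05). That is 50% of the tested import genes higher and 18.4% lower, beside 62.3% of all genes changed in either direction. The other 12 did not pass. Their median log2 fold change was 0.17, against 0.01 over all genes tested. Every Bcat1-KO library lay above every Control library for 21 of them, beside 35.1% of all genes, below for 7, beside 32.5%, and the groups overlapped for 10. Over all genes tested, 67.7% did not overlap in either direction. In bulk RNA, fewer cells carrying an RNA and less of it per cell cannot be told apart.

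Most changes were small. For 30 of the 38 genes the log2 fold change lay within 0.5 of 0, and only 2 of the genes that passed changed by 2-fold or more, Dnajc15 and Smim20, where 19.2% of all genes tested did so. Against a change of 1.5-fold, 0 of the import genes were higher and 2 were lower, where 11.2% of all genes tested were higher and 10.6% lower. With the median fold change of the 51 genes around each gene removed, 16 were higher and 4 were lower, beside 28.0% and 27.6% of all genes. These were not all the same genes: of the 26 calls 16 stayed, 7 no longer passed and 3 changed sign. Control replicate 1 had the lowest Control level for 30 of the 38 genes, and without it 14 were higher and 7 lower, beside 27.4% and 26.9% of all genes.

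**Figure D1:**
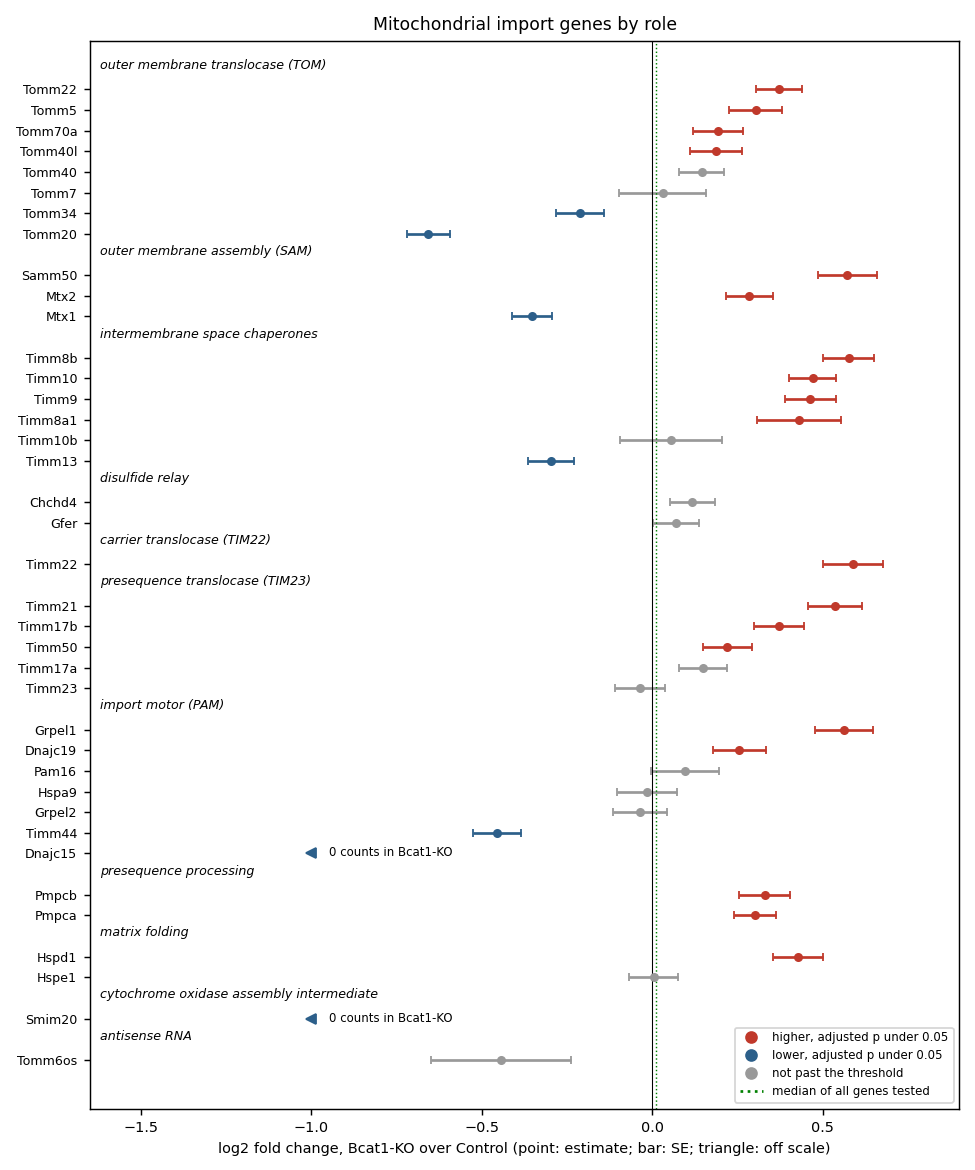
Log2 fold change of each tested import gene in Bcat1-KO over Control cells (x axis; points with the SE as bars), grouped by role down the page, with 0 as the solid line and the median of all tested genes, 0.01, dotted. Red points (19) rose, blue points and triangles (7) fell and grey points (12) did not pass; Dnajc15 and Smim20, with 0 counts in Bcat1-KO cells, lie off the scale.

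Dnajc15 and Smim20 had no counts in any Bcat1-KO library. Counts cover the deposited exons only, which for Dnajc15 are 648 bases, against 6513 in GENCODE M21. Dnajc15 (ENSMUSG00000022013.3, chromosome 14, 77826217 to 77874917, minus strand, mm10) encodes a J protein of the inner membrane, also called MCJ, that can stimulate the import motor and is known as a brake on respiratory complex I. It was at 0, 0 and 0 CPM in Bcat1-KO cells, against 8.08, 8.29 and 9.05 CPM in Control cells, which held 792 counts in all. Counted against 3 reads over the Bcat1-KO group, it was at least 313-fold lower (adjusted p = 6.00e-09, edgeR).

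Smim20 (ENSMUSG00000061461.11, chromosome 5, 53267083 to 53278540, plus strand, mm10) encodes MITRAC7, a small inner membrane protein that holds newly made cytochrome oxidase subunit 1 during assembly. It was at 0, 0 and 0 CPM in Bcat1-KO cells, against 9.98, 11.8 and 10.0 CPM in Control cells, which held 995 counts. It was at least 391-fold lower (adjusted p = 4.48e-09, edgeR). Exactly 0 counts over a group was rare: 23 of all genes tested (0.164%) had 0 counts over the Bcat1-KO group, and 28 (0.200%) had 0 over the Control group. Genes with a few counts left, such as Chchd10 (10 against 2715 counts), are outside these numbers. Of the 23, 3 had 8 CPM or more in Control cells, Dnajc15 and Smim20 among them. That line lies just under the Control mean of Dnajc15, 8.47 CPM, so nothing is read from their place there.

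The promoter windows of both genes are shown because they had no counts in 1 group. Each runs from 250 bases before to 50 bases after the transcription start (RefSeq, GRCm38.p6), with CG dinucleotides, the sites that DNA methylation acts on, in capitals. No methylation was measured here. The Dnajc15 window lies at chr14:77874868-77875167 on the minus strand and holds 16 CG, and 33% of all 32851 windows hold at least as many. The Smim20 window lies at chr5:53266856-53267155 on the plus strand and holds 19 CG, and 28.1% hold at least as many.
Dnajc15: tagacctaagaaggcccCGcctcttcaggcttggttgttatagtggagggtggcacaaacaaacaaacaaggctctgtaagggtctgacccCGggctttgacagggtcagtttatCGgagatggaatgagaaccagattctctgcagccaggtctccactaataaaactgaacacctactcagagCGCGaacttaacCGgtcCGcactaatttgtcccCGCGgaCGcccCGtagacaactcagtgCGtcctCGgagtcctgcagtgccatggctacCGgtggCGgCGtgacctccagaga
Smim20: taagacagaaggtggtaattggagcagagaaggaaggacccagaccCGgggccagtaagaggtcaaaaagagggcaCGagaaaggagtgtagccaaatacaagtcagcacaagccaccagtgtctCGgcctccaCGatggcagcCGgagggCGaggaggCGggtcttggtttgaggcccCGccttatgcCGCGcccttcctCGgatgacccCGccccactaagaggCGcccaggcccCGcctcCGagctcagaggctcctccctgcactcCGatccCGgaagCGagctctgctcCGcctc

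The genes beside Smim20 were low as well. Gm45495, a predicted gene 3269 bases away, had 0 counts in Bcat1-KO cells and 2.77 ± 0.404 CPM in Control cells (SD, n = 3), and was at least 102-fold lower. Sel1l3, which lies 53155 bases away on the other side and resembles the endoplasmic reticulum degradation factor Sel1l, was at 0.999 ± 0.327 CPM in Bcat1-KO cells and 51.7 ± 0.543 CPM in Control cells (log2 fold change -5.70, SE 0.15, adjusted p = 4.14e-11, edgeR). So 3 genes in a row were nearly silent in every Bcat1-KO library. Among the 5 tested genes on each side of Smim20, 1 was higher and 6 were lower, beside 32.0% and 30.3% of all genes tested. The median over these 10 neighbours was -0.39 on the log2 scale.

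Dnajc15 alone had 0 counts among its tested neighbours, though most of them were lower too. Enox1, a cell surface oxidase gene 104456 bases away, was higher, at 1.58 ± 0.548 CPM in Bcat1-KO cells and 0.624 ± 0.126 CPM in Control cells (log2 fold change 1.34, SE 0.30, adjusted p = 0.00235). Akap11, an anchoring protein gene of protein kinase A 617328 bases away on the other side, was at 61.2 ± 3.83 CPM in Bcat1-KO cells and 99.8 ± 6.62 CPM in Control cells (log2 fold change -0.70, SE 0.07, adjusted p = 5.54e-06). Among the 10 tested neighbours of Dnajc15, 2 were higher and 6 lower, beside 32.0% and 30.3% of all genes tested. Of the 6, Dgkh (log2 fold change -1.36) and Rgcc (-1.22) fell furthest. The median over the 10 neighbours was -0.28 on the log2 scale, and none had 0 counts in a group.

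**Figure D2:**
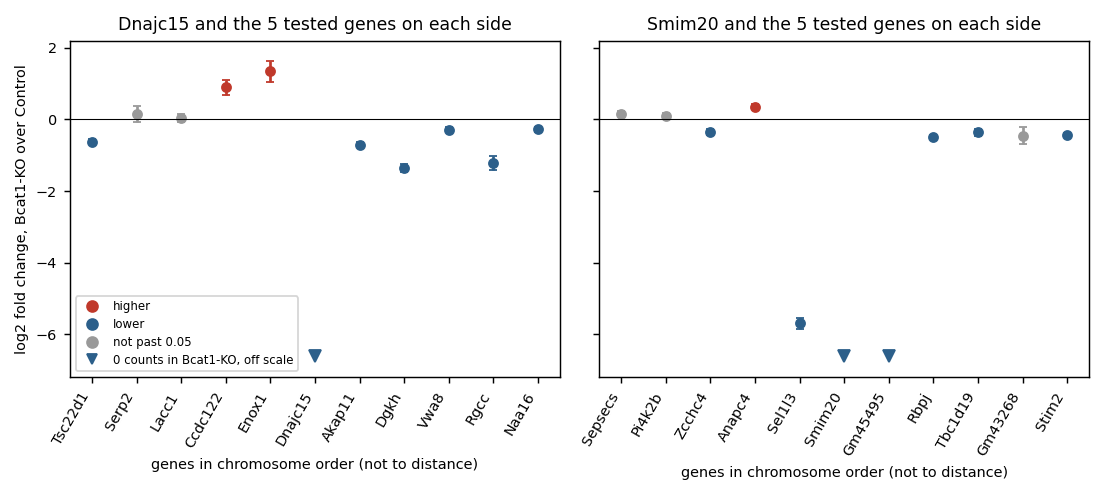
Log2 fold change in Bcat1-KO over Control cells (y axis, points with SE) of Dnajc15 (left) and Smim20 (right) with the 5 tested genes on each side in chromosome order. Triangles mark genes with 0 counts in Bcat1-KO cells: Dnajc15 alone on the left, and Smim20 with its neighbour Gm45495 on the right, next to Sel1l3 at -5.70.

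The counts by role that follow stand beside the same 32.0% of all genes tested that rose and 30.3% that fell, and with so few genes a role nothing is read from them. Of the 8 tested protein-coding Tomm genes, 4 rose and 2 fell. They stand for the TOM complex, the entry gate, except Tomm34, which fell and encodes a cytosolic cochaperone. Tomm20, a receptor that binds presequences, was at 179, 181 and 181 CPM in Bcat1-KO cells, against 274, 293 and 288 CPM in Control cells. The groups were far apart and this was the largest fall among the import genes with reads in both groups (log2 fold change -0.66, SE 0.06, adjusted p = 2.71e-06). The median log2 fold change of the 51 genes around Tomm20 was -0.38. Tomm22, the central receptor, which docks Tomm20 to the channel, moved the other way, with 117 ± 6.25 CPM in Bcat1-KO cells and 90.5 ± 4.99 CPM in Control cells (SD, n = 3 each; log2 fold change 0.37, adjusted p = 0.000567). Tomm70a, the receptor for carrier precursors, rose by less, to 359 ± 25.3 CPM in Bcat1-KO cells, against 314 ± 13.7 CPM in Control cells (log2 fold change 0.19, adjusted p = 0.0409), but lay at -0.06 (adjusted p = 0.551) relative to the 51 genes around it.

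The channel and its small subunits moved little. Tomm40, the channel itself, was at 125, 130 and 143 CPM in Bcat1-KO cells, against 119, 120 and 121 CPM in Control cells, and did not pass (log2 fold change 0.14, adjusted p = 0.0779), though it did without Bcat1-KO replicate 1 (adjusted p = 0.0277). Its paralogue Tomm40l was at 70.5, 60.7 and 61.5 CPM in Bcat1-KO cells, against 57.6, 53.4 and 58.5 CPM in Control cells. It passed narrowly (log2 fold change 0.19, adjusted p = 0.0488) and did not under DESeq2 (adjusted p = 0.0940). Tomm5, a small subunit that helps assemble the channel, rose to 46.3 ± 0.679 CPM in Bcat1-KO cells, against 37.5 ± 3.54 CPM in Control cells (log2 fold change 0.30, adjusted p = 0.00517).

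Tomm7, another small subunit, depended on a single library. It was at 56.3, 38.9 and 38.8 CPM in Bcat1-KO cells, against 42.5, 46.6 and 42.2 CPM in Control cells. Replicate 1 of Bcat1-KO was the highest of all 6 and the other two were the lowest. The log2 fold change was 0.03 (adjusted p = 0.851) with all libraries and -0.19 without Bcat1-KO replicate 1 (adjusted p = 0.0194). Tomm34, a cytosolic cochaperone that binds precursors, fell to 110 ± 5.53 CPM in Bcat1-KO cells, against 127 ± 8.47 CPM in Control cells (log2 fold change -0.21, adjusted p = 0.0207). For Tomm34 the adjusted p was 0.0588 without Bcat1-KO replicate 2, 0.0623 without Control replicate 2, 0.0868 without Control replicate 3 and 0.119 relative to the 51 genes around it. For Tomm70a it was between 0.0775 and 0.161 without any 1 library other than Bcat1-KO replicate 1, and for Tomm40l between 0.0661 and 0.220 without any 1 library other than Bcat1-KO replicate 2.

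Tomm6, the remaining small subunit, could not be read from the counts on its own strand. It had 18 counts over the Bcat1-KO group and 17 over the Control group, although it is a core subunit of the complex. In the GENCODE M21 annotation 76.0% of its exonic bases are also exons of Gm21981 on the same strand, and Gm21981 had at most 2 counts in a library. Tomm6os (chromosome 17, 47687610 to 47691083), an antisense RNA that the name rule took in, was at 1.80 ± 0.347 CPM in Bcat1-KO cells and 2.45 ± 0.391 CPM in Control cells and did not pass (log2 fold change -0.44, adjusted p = 0.0774; without Bcat1-KO replicate 2, adjusted p = 0.0323; relative to the 51 genes around it, -0.57 and 0.0321). Timm8a2 had 6 counts over the Bcat1-KO group and 3 over the Control group, and Tomm20l had 0 in both. These 3 genes, Tomm6, Timm8a2 and Tomm20l, were the ones that the filter left out.

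All 3 genes of the outer membrane assembly machinery passed, and not in 1 direction. Samm50, the barrel through which other barrel proteins are inserted, was at 172, 135 and 144 CPM in Bcat1-KO cells, against 98.8, 104 and 100 CPM in Control cells (log2 fold change 0.57, SE 0.09, adjusted p = 0.000123). Replicate 1 of Bcat1-KO was highest, and the groups did not overlap. Mtx2, a metaxin of the complex, rose to 41.1 ± 2.41 CPM in Bcat1-KO cells, against 33.7 ± 0.447 CPM in Control cells (log2 fold change 0.28, adjusted p = 0.00392). Its partner Mtx1 fell to 54.9 ± 0.888 CPM in Bcat1-KO cells, against 70.1 ± 1.145 CPM in Control cells (log2 fold change -0.35, adjusted p = 0.000282). Relative to the 51 genes around it, Mtx1 was higher in Bcat1-KO cells (log2 fold change 0.20, adjusted p = 0.0143), and Mtx2 did not pass (0.08, adjusted p = 0.382).

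Of the 6 tested small TIM chaperones, which shield hydrophobic proteins in the intermembrane space, 4 rose and 1 fell. Timm8b was at 51.9, 45.1 and 47.3 CPM in Bcat1-KO cells, against 31.0, 33.7 and 32.2 CPM in Control cells, with no overlap (log2 fold change 0.58, SE 0.07, adjusted p = 3.87e-05). Timm9 and Timm10 form the main chaperone ring together and rose by like amounts. Timm9 was at 37.96 ± 1.249 CPM in Bcat1-KO cells and 27.5 ± 1.81 CPM in Control cells (log2 fold change 0.46, adjusted p = 0.000208), and Timm10 at 41.0 ± 0.465 CPM in Bcat1-KO cells and 29.6 ± 1.69 CPM in Control cells (log2 fold change 0.47, adjusted p = 0.000112).

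Timm8a1 and Timm13 are partners in a second ring, and here they moved apart. Timm8a1 rose to 11.1 ± 0.697 CPM in Bcat1-KO cells, against 8.28 ± 1.17 CPM in Control cells (log2 fold change 0.43, adjusted p = 0.0101; 0.0563 without Control replicate 1, 0.0509 without Control replicate 2 and 0.0622 relative to the 51 genes around it). Timm13 fell to 72.5 ± 5.06 CPM in Bcat1-KO cells, against 89.1 ± 2.69 CPM in Control cells (log2 fold change -0.30, adjusted p = 0.00254), but lay at 0.14 (adjusted p = 0.107) relative to the 51 genes around it. Timm10b, which ties the ring to TIM22, was at 5.98 ± 0.724 CPM in Bcat1-KO cells and 5.75 ± 0.847 CPM in Control cells and did not pass (adjusted p = 0.765). Chchd4 and Gfer, the relay that puts disulfide bonds into these proteins, did not pass either, with log2 fold changes of 0.12 (adjusted p = 0.147) and 0.07 (adjusted p = 0.393).

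At the inner membrane, Timm22, the channel for carrier proteins, rose by about as much as Timm8b. It was at 30.3, 33.1 and 35.9 CPM in Bcat1-KO cells, against 20.3, 22.4 and 23.4 CPM in Control cells (log2 fold change 0.59, SE 0.09, adjusted p = 0.000116). In TIM23, the translocase for presequence proteins, 3 of 5 genes rose and none fell. Timm21, which connects TIM23 with TOM and with respiratory chain assembly, was at 32.1, 32.1 and 28.8 CPM in Bcat1-KO cells, against 22.1, 21.3 and 20.7 CPM in Control cells (log2 fold change 0.54, SE 0.08, adjusted p = 9.89e-05). The lowest Bcat1-KO library of both genes was above the highest Control library.

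Timm50, the receptor that takes presequences from TOM, rose to 98.9 ± 7.01 CPM in Bcat1-KO cells, against 84.9 ± 4.14 CPM in Control cells (log2 fold change 0.22, adjusted p = 0.0178). Its adjusted p was 0.0905 without Bcat1-KO replicate 3, 0.0891 without Control replicate 1 and 0.0648 without Control replicate 3. Timm23, the channel protein, was at 65.8 ± 0.920 CPM in Bcat1-KO cells and 67.5 ± 5.91 CPM in Control cells (log2 fold change -0.04, adjusted p = 0.682). Relative to the 51 genes around it, Timm23 was higher (log2 fold change 0.34, adjusted p = 0.00197). Timm17a and Timm17b are alternative partners of Timm23. Timm17b was at 50.6, 44.9 and 50.1 CPM in Bcat1-KO cells, against 35.3, 38.7 and 38.5 CPM in Control cells (log2 fold change 0.37, adjusted p = 0.00101). Timm17a was at 109, 124 and 120 CPM in Bcat1-KO cells, against 99.9, 108 and 111 CPM in Control cells, with overlap (log2 fold change 0.15, adjusted p = 0.0863; 0.0177 without Bcat1-KO replicate 1). Relative to the 51 genes around it, Timm17a was higher (log2 fold change 0.49, adjusted p = 0.000108).

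In the import motor 2 of 7 genes were higher and 2 lower. Grpel1, the nucleotide exchange factor of the motor, was at 97.1, 112 and 119 CPM in Bcat1-KO cells, against 68.0, 76.4 and 77.8 CPM in Control cells (log2 fold change 0.56, SE 0.08, adjusted p = 0.000122). Timm44, which anchors the motor at the channel exit, was at 175, 190 and 180 CPM in Bcat1-KO cells, against 267, 243 and 237 CPM in Control cells (log2 fold change -0.46, SE 0.07, adjusted p = 0.000149). Neither gene's groups overlapped, yet neither passed relative to the 51 genes around it (adjusted p = 0.0937 for Grpel1 and 0.0565 for Timm44). Hspa9, the motor's Hsp70 itself, was at 1510, 1786 and 1774 CPM in Bcat1-KO cells, against 1661, 1705 and 1764 CPM in Control cells, with no difference past the test (log2 fold change -0.02, adjusted p = 0.875).

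Dnajc19, the J protein related to Dnajc15, was at 31.1, 32.6 and 31.3 CPM in Bcat1-KO cells, against 24.96, 26.0 and 28.7 CPM in Control cells. Every Bcat1-KO library was above every Control library (log2 fold change 0.25, adjusted p = 0.0129), but the adjusted p was 0.0697 without Control replicate 1 and 0.0680 without Control replicate 2. Pam16, which regulates the J proteins, did not pass, at 17.6 ± 0.843 CPM in Bcat1-KO cells and 16.5 ± 1.71 CPM in Control cells (log2 fold change 0.10, adjusted p = 0.419). Grpel2, the second exchange factor, was at 47.1, 56.0 and 54.3 CPM in Bcat1-KO cells, against 55.3, 55.1 and 51.01 CPM in Control cells, with overlap (log2 fold change -0.04, adjusted p = 0.701).

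**Figure D3:**
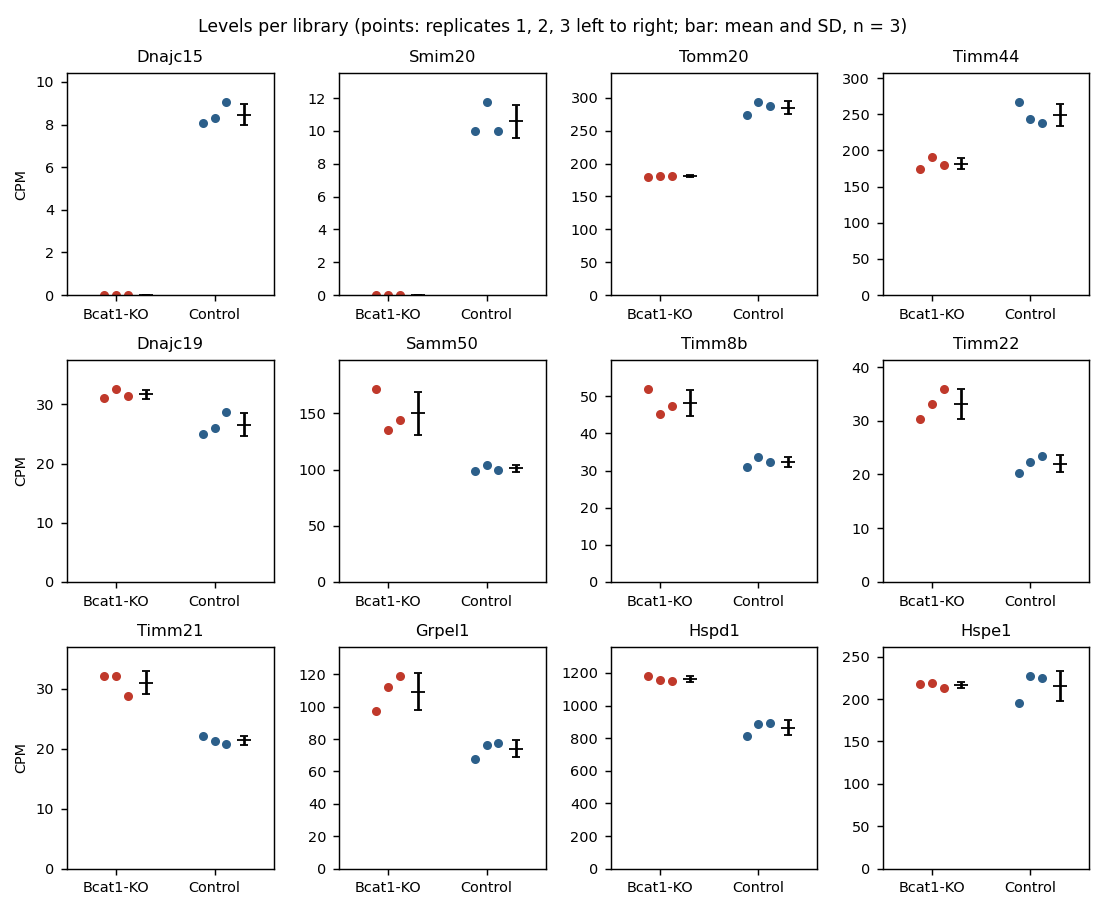
Level in CPM (y axis, from 0) of 12 import genes in each library, with Bcat1-KO (red) left of Control (blue), replicates 1 to 3 from left to right, and the mean with SD (n = 3) as a black bar. Dnajc15 and Smim20 lie at 0 in all Bcat1-KO libraries, Tomm20 and Timm44 below the Control libraries, and Hspe1 overlaps with Control at 216 ± 3.32 CPM in Bcat1-KO cells and 216 ± 17.7 CPM in Control cells.

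Paralogues that can fill the same place were compared per length, on the authors' TPM scale, as the share of 1 gene in the sum of its pair. Dnajc15 held 0% of the pair with Dnajc19 in Bcat1-KO cells and 66.5% ± 0.288 in Control cells (SD, n = 3). The pair's summed level was 25.8 ± 1.05 TPM in Bcat1-KO cells and 62.1 ± 4.09 TPM in Control cells, all of it Dnajc19 in Bcat1-KO cells, at 24.8, 26.9 and 25.7 TPM. The deposited exonic length of Dnajc15 is 648 bases and that in GENCODE M21 is 6513, so its Control level, its share and the Control sum all depend on the gene model, and the sums of the groups are not compared.

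Grpel2 held 29.6% ± 0.974 of its pair with Grpel1 in Bcat1-KO cells and 38.9% ± 2.57 in Control cells. Its deposited exonic length is 4030 bases and that in GENCODE M21 is 6759, so these shares also depend on the gene model. Timm17a held 44.0% ± 3.03 of its pair with Timm17b in Bcat1-KO cells and 47.8% ± 0.474 in Control cells, and the difference of -3.80 points was -2.38 points without Bcat1-KO replicate 1. In these 3 pairs the groups did not overlap, but for Timm17a only narrowly, with Bcat1-KO replicate 2 at 47.2% and Control replicate 2 at 47.4%. Tomm40l held 29.9% ± 2.87 of its pair with Tomm40 in Bcat1-KO cells and 29.3% ± 1.04 in Control cells, with overlap, and the difference of 0.646 points was -0.945 points without Bcat1-KO replicate 1. Over the 4 pairs compared, the exact two-sided permutation p was 0.1 (0.133 adjusted) for the first 3, the smallest that 3 against 3 libraries can give, and 0.9 for Tomm40l.

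**Figure D4:**
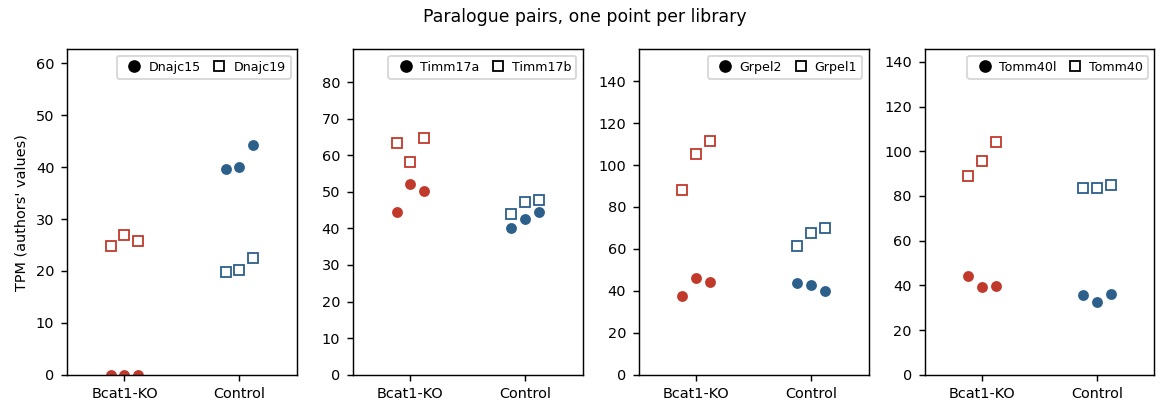
TPM of each library (y axis, authors' values, from 0) for 4 pairs of paralogues, with Bcat1-KO (red) left of Control (blue); filled circles are the first gene named in each panel and open squares the second. Dnajc15 is at 0 in all Bcat1-KO libraries, while Dnajc19, Grpel1 and Timm17b lie higher there than in Control libraries.

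In the matrix, both subunits of the peptidase that removes presequences rose. Pmpca was at 222 ± 1.65 CPM in Bcat1-KO cells and 180 ± 6.17 CPM in Control cells (log2 fold change 0.30, adjusted p = 0.00116), and Pmpcb at 132 ± 10.0 CPM in Bcat1-KO cells and 105 ± 7.22 CPM in Control cells (log2 fold change 0.33, adjusted p = 0.00271). Pmpcb did not pass relative to the 51 genes around it (adjusted p = 0.0929).

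The chaperonin and its lid did not move together. Hspd1, the barrel-shaped chaperonin Hsp60, was at 1182, 1157 and 1149 CPM in Bcat1-KO cells, against 816, 889 and 893 CPM in Control cells (log2 fold change 0.43, SE 0.07, adjusted p = 0.000356). Hspe1, its lid Hsp10, was at 217, 219 and 213 CPM in Bcat1-KO cells, against 195, 227 and 225 CPM in Control cells (log2 fold change 0.00, SE 0.07, adjusted p = 0.969). The ratio of Hspd1 to Hspe1 TPM was 2.998 ± 0.0442 in Bcat1-KO cells and 2.24 ± 0.0768 in Control cells (SD, n = 3 each), and the 2 groups did not overlap (exact two-sided permutation p = 0.1, the smallest possible). GENCODE M21 names 5 pseudogenes of Hspd1 and 6 of Hspe1, and reads shared with such copies make both levels uncertain.

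On the TPM scale Hspd1 ranked first of the import genes in Bcat1-KO cells, at 1441 ± 11.1 TPM, ahead of Hspa9 at 1409 ± 154 TPM, a gap within the spread. In Control cells Hspa9 ranked first, at 1373 ± 41.4 TPM, and Hspd1 next, at 1034 ± 46.4 TPM. Hspe1 came next in both, at 481 ± 10.8 TPM in Bcat1-KO cells and 462 ± 35.1 TPM in Control cells.

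Hspd1 and Hspe1 lie head to head on chromosome 1, and the window of Hspe1 is shown because 285 of its 300 bases are also in 1 of the 2 RefSeq windows of Hspd1. The other Hspd1 window, whose start matches the end of the deposited Hspd1 gene, shares 4 bases with it and has neither an ETS nor a heat shock element match, so the letters shown lie inside the deposited Hspd1 gene. It lies at chr1:55087898-55088197 on the plus strand (RefSeq, GRCm38.p6). The capitals mark a match to the heat shock element GAANNTTC, which starts at base 167.
Hspe1: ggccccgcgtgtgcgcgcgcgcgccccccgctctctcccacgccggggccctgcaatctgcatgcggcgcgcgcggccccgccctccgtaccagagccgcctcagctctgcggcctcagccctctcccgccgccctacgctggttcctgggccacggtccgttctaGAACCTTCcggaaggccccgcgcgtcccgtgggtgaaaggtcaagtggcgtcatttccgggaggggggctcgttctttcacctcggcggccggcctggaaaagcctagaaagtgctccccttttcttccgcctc

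Windows of 36 of the 41 import genes were found, 39 windows in all, and they were rich in CG, with a median of 20 (7 to 55) against 7 over all 32851 windows. Each of 4 motifs was searched on both strands. The ETS motif CCGGAAG was in 17 of the 39 windows (43.6%) and in 8.86% of all windows. The NRF1 motif, GCGCA and GCGC parted by any 1 base, was in 5 (12.8%), against 4.60% of all windows, and the E-box CACGTG in 7 (17.9%), against 7.15%. The heat shock element GAANNTTC was in 3 (7.69%), against 7.86% of all windows. The ETS, NRF1 and E-box motifs each hold a CG, and the heat shock element requires none. All windows were not matched to the import genes for CG, so the part of CG content in these shares was not tested. ETS and heat shock element matches overlapped in 2 windows, those of Hspd1 and Hspe1, by up to 4 bases in Hspe1. These windows share 285 bases, so this is 1 site counted in both, also among the 3 windows with a heat shock element. The 17 windows with an ETS match include both of them, and also 2 windows of Tomm34 that overlap each other. Of the 2 genes with 0 counts, Smim20 had an ETS match and Dnajc15 none of the 4 motifs. A match is a run of letters and was not tied to any factor here.

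Other genes of mitochondrial protein handling were read from 6 lists that hold none of the import genes above. Their counts stand beside 32.0% of all genes tested that rose and 30.3% that fell. Of 17 other import genes, 11 rose (64.7%) and 3 fell (17.6%), and the median was 0.22 on the log2 scale. Immp2l, a peptidase of the inner membrane, was at 5.75 ± 0.447 CPM in Bcat1-KO cells and 3.35 ± 0.204 CPM in Control cells (log2 fold change 0.78, adjusted p = 0.000409), and Mtch2, an outer membrane insertase, rose by 0.49 on the log2 scale (adjusted p = 0.000156). Mtx3, a further metaxin, was at 61.9, 87.1 and 69.1 CPM in Bcat1-KO cells, against 133, 112 and 108 CPM in Control cells (log2 fold change -0.70, adjusted p = 0.000289). Mtx1 fell as well and Mtx2 rose, but the median log2 fold change of the surrounding genes was -0.17 for Mtx3 and -0.55 for Mtx1.

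Of 11 genes of the MICOS complex and its inner membrane partners, which shape the cristae, 9 rose (81.8%) and 1 fell (9.09%), with a median of 0.39. Apool rose by 0.75 (adjusted p = 0.00113), Apoo by 0.64 (adjusted p = 0.000545) and the prohibitin Phb by 0.49 (adjusted p = 8.03e-05) on the log2 scale. Samm50, which binds MICOS to the outer membrane, rose as well, as given above.

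Of 13 mitochondrial proteases, 8 rose (61.5%) and 3 fell (23.1%), with a median of 0.24. Lactb, a serine protease of the intermembrane space, was at 7.15, 7.25 and 6.44 CPM in Bcat1-KO cells, against 1.27, 1.36 and 1.48 CPM in Control cells (log2 fold change 2.34, SE 0.15, adjusted p = 9.06e-08). Oma1, the stress-activated protease of the inner membrane, rose by 0.76 (adjusted p = 0.000806). Lonp1, the main matrix protease, was at 492, 711 and 765 CPM in Bcat1-KO cells, against 947, 927 and 962 CPM in Control cells (log2 fold change -0.53, adjusted p = 0.00451), and Bcat1-KO replicate 1 was the lowest.

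Of 22 tested genes of cytochrome oxidase assembly, the pathway in which Smim20 acts, 11 rose (50%) and 1 fell (4.55%), with a median of 0.22. The gene that fell was Cox16, named here after its values were seen, at 0.388, 0.806 and 0.660 CPM in Bcat1-KO cells, against 4.74, 5.45 and 5.64 CPM in Control cells (log2 fold change -3.08, SE 0.23, adjusted p = 2.82e-07). The largest rises under the naming rule were those of Coa4 (log2 fold change 1.10, adjusted p = 6.34e-05), Cmc1 (0.88, adjusted p = 3.27e-05) and Taco1 (0.84, adjusted p = 0.000169). Of 18 proteins with twin cysteine motifs, which Chchd4 imports, 9 rose (50%) and 2 fell (11.1%), with a median of 0.18. Chchd10, a small protein tied to cristae, was at 0.0554, 0.182 and 0.0275 CPM in Bcat1-KO cells, against 25.9, 31.4 and 29.6 CPM in Control cells, which is 10 counts against 2715 (log2 fold change -8.27, SE 0.25, adjusted p = 1.12e-10). Chchd7 fell as well (log2 fold change -1.08, adjusted p = 3.59e-06).

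The cytosolic chaperones that bring precursors to the outer membrane had more genes lower than higher. Of 16 tested, 3 rose (18.8%) and 8 fell (50%), beside 32.0% and 30.3% of all genes, with a median of -0.21. Hsp90aa1, an Hsp90, fell to 545 ± 16.4 CPM in Bcat1-KO cells, against 732 ± 39.4 CPM in Control cells (log2 fold change -0.42, adjusted p = 0.000319). St13, a cochaperone of Hsp70, rose by 0.55 (adjusted p = 3.85e-05) and Dnajb6 by 0.50 (adjusted p = 0.000118) on the log2 scale. The 8 falls ran from -0.42 (Hsp90aa1) to -0.21 (Dnajb1). The median log2 fold change of the genes around each was -0.45 for Hsp90aa1, -0.31 for Dnaja1, -0.44 for Dnaja2 and -0.33 for Dnajb1. It was -0.34 for Ubqln1, -0.37 for Ubqln4, -0.31 for Bag1 and, unlike these, 0.15 for Hsph1. Around the 3 genes that rose it was 0.15 for St13, 0.49 for Dnajb6 and 0.0995 for Ubqln2. The part of the surrounding genes in this list was not tested. The lists share 6 genes among themselves, and no list was tested as a set.

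**Figure D5:**
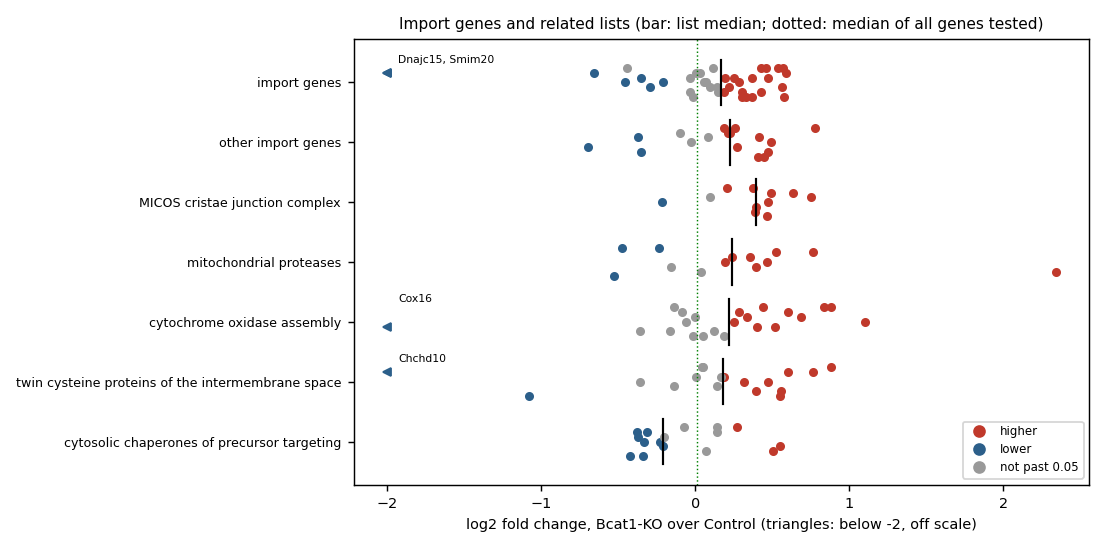
Log2 fold change in Bcat1-KO over Control cells (x axis) of each tested import gene and of 6 related lists, 1 point a gene, with the list median as a black bar and the median of all genes tested, 0.01, dotted. The medians of the import genes (0.17) and of 5 lists (0.18 to 0.39) lie above 0, that of the cytosolic chaperones at -0.21, and triangles mark genes below -2.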

How the data were processed

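RNA was measured in 3 Bcat1-KO and 3 Control samples of mGB2 cells. RNA came from a column kit with DNase treatment and libraries from a stranded mRNA kit, per the labels' protocols. The submitters' processing notes name STAR 2.5.3a, featureCounts and the build mm10. Which annotation was counted is not stated in the sources used here. The deposited counts are raw reads per gene, and those on the reverse strand, which this kit gives, were used. The authors' TPM values, deposited beside the counts, were used for levels between genes.

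Genes passing edgeR's expression filter (14020, with 0.0511% of the counts removed) were scaled by TMM and tested with the quasi-likelihood test of edgeR 4.0.16 in R 4.3.3, with no covariate and Benjamini-Hochberg adjustment over all of them at 0.05. The common biological coefficient of variation was 8.26%. CPM are scaled by TMM. A gene with 0 counts in a group has a bound against 3 counts over the group (0.0270 CPM in Bcat1-KO, 0.0320 CPM in Control), which covers counting error only, and medians over lists are the same with such genes at their bound. Replicates of a group differed beyond counting noise. GENCODE M21, an annotation of the same genome, gave exon overlaps and pseudogene names, and 29 of the 41 genes have the same exonic length in it.

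The genes and lists were chosen with earlier results of these data known. Of the 41 genes, values per library are given for those that passed with an absolute log2 fold change of at least 0.5, that were at 0 in a group, that are in a paralogue pair or that are the 2 most abundant. Values per library of Timm44, Hspe1 and Tomm7 and the ratio of Hspd1 to Hspe1 were added with their values in view. Of each list up to 3 genes that passed were named, by the largest change among those whose mean log2 CPM was 2 or more, and any gene under 0.1 CPM in 1 group and over 1 CPM in the other. Alternatives were other scalings, no filter, DESeq2 1.42.0, limma-voom and limma-trend on log2(TPM + 1) (limma 3.58.1), unstranded counts, a 1.5-fold test, a replicate block, removal of the median of 51 surrounding genes, and leaving out each library.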

Additional observations from a re-analysis of the deposited data

Results flagged for a closer look

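Reads on the minus strand over the exons of Tomm6os, which the comparison does not use, are a signal outside the main measurement, at the place where Tomm6 lies. They numbered 1921, 1757 and 1876 in Bcat1-KO libraries, against 1308, 1481 and 1270 in Control libraries, far above the 9 counts that Tomm6 itself reached in any library. That is 53.2, 45.7 and 51.6 CPM in Bcat1-KO libraries, against 41.6, 44.6 and 43.7 CPM in Control libraries. The mean was 50.2 ± 3.98 CPM in Bcat1-KO cells and 43.3 ± 1.55 CPM in Control cells (SD, n = 3 each), a ratio of 1.16. The groups did not overlap, and the exact two-sided permutation p was 0.1, the smallest that 3 against 3 libraries can give. These reads were not assigned to a gene here, and Tomm6 and Gm21981 both have exons on that strand.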

How the results depend on the processing

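Under the 16 alternatives, 23 of the 26 import genes that passed kept their direction in every one. Dnajc15 and Smim20 kept their call in all 16, and 20 of the 26 did in the 14 other than the 1.5-fold test and the removal of the local median. The 1.5-fold test left 0 genes higher and 2 lower. With the local median removed, 16 were higher and 4 lower, but these were not all the same genes. Of the 26 calls 16 stayed, 7 no longer passed and 3 changed sign, while Timm17a, Timm23 and Tomm6os were newly called. This removal turned Mtx1 to 0.20, Timm13 to 0.14, Tomm70a to -0.056, Timm23 to 0.34, Gfer to -0.090, Hspe1 to -0.059 and Timm10b to -0.025 on the log2 scale, and the cause was not tested. With log2(TPM + 1), Grpel2 lay at 0.013, Hspa9 at 0.032 and Timm23 at 0.020. Hspe1 lay at -0.011 with RLE scaling, -0.0074 with upper quartile scaling, -0.0058 without the filter and -0.011 under DESeq2, and Pam16 at -0.010 with unstranded counts. Those are genes that did not pass. With 1 library left out, genes higher numbered 14 to 20 and genes lower 6 to 8. The log2 fold change then ran from -0.096 to 0.016 for Grpel2, -0.068 to 0.038 for Hspa9, -0.075 to 0.032 for Hspe1, -0.059 to 0.15 for Timm10b and -0.19 to 0.11 for Tomm7, and the Tomm40l share difference from -0.945 to 1.85 points. The correlations of same-numbered libraries, taken on deviations from the group means, were -0.0508, -0.0730 and 0.156. Those of differently numbered libraries ran from -0.118 to 0.176. They give no sign that the replicate numbers pair the samples, but so few libraries cannot exclude a pairing. With a replicate block, 20 genes were higher and 7 lower. Timm17a, which did not pass in the comparison as reported, passed with the local median removed (0.49, adjusted p = 0.000108) and with the block (adjusted p = 0.0466). Depth sets the bounds for Dnajc15 and Smim20.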
